A study of Mus musculus with 6 samples.

Results

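The 6 genes described here are the neurotrophin genes Bdnf and Ntf3 and the receptor genes Ntrk2, Ntrk3, Ngfr and Sort1. They were chosen by name, and all 6 were found among the 29547 rows of the deposited table. RNA bound to phosphorylated ribosomes was sequenced from the mouse vBNST, the ventral part of the bed nucleus of the stria terminalis, which belongs to the extended amygdala. There were 3 libraries labelled CS and 3 labelled Con, taken 90 min after a test with a conditioned cue, CS+ or CS-. Ribosomes were captured with an antibody against phosphorylated S6, a ribosomal protein that is phosphorylated in active neurons. The labels do not say which cue the CS libraries stand for, what the Con mice received, or the strain, sex, age or number of mice per library. P-values therefore measure the spread between these libraries, which may be technical. No input RNA is among the 6 libraries, so levels are those of the precipitate and not an enrichment over the tissue.

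Neurotrophins are secreted proteins that keep neurons alive during development and adjust synapses in the adult brain. BDNF acts through the receptor tyrosine kinase TrkB, encoded by Ntrk2, and NT-3, encoded by Ntf3, acts mainly through TrkC, encoded by Ntrk3. All neurotrophins also bind p75NTR, a receptor without kinase activity encoded by Ngfr. Sortilin, encoded by Sort1, sorts BDNF into the regulated secretory pathway and is the partner of p75NTR for the uncleaved proneurotrophins. In the adult forebrain Bdnf is transcribed in activity-dependent fashion, largely by excitatory neurons, and BDNF protein reaches many inhibitory regions along their axons. TrkB and TrkC each exist as full-length kinases and as truncated forms without the kinase domain, and the truncated form of TrkB is abundant in astrocytes.

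Values are RPKM, reads divided by the exon length of a row in kilobases and by the assigned reads of the library. Libraries held between 1365181 and 2342686 assigned reads in CS and between 765769 and 1427784 in Con, and 1 read on 1 kilobase of exon was worth between 0.427 and 1.31 RPKM. The whole-table comparison took log2(RPKM + 0.1), centred each library on its median difference from the average library, and tested CS minus Con with limma and Benjamini-Hochberg adjustment at a threshold of 0.05. It covered the 20550 rows with a mean of at least 0.5 RPKM. Ntrk2, Ntrk3, Ngfr and Sort1 passed this filter, and Bdnf and Ntf3 did not. This centring, called median scaling below, lowered CS by 0.37 relative to Con on the log2 scale. It sets the sign of small differences, and values as deposited are therefore given beside the scaled ones.

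Of the 4 tested genes limma called 0, against 0.968% of all tested rows. Limma voom with median scaling on recovered reads called 1, Ntrk3, of the 3 it could test, against 6.43% of all rows it could test. At an unadjusted p under 0.05 there was 1 of the 4, Ntrk3, against 12.5% of all tested rows. Ntrk3 was also the 1 gene of the 4 whose CS and Con libraries did not overlap, against 23.0% of all tested rows in either direction and 15.4% with CS below Con. Ntrk2, Ngfr and Sort1 had overlapping groups.

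Bdnf, the ligand of TrkB, was barely present in the precipitate. Its row, on chromosome 2 from 109674700 to 109727007 on the plus strand (GRCm38), held 1, 1 and 14 reads in CS libraries 1, 2 and 3, against 1, 0 and 0 reads in Con libraries 1, 2 and 3. These are 0.102, 0.118 and 0.961 RPKM as deposited in CS and 0.210, 0 and 0 RPKM in Con. CS library 3 thus held 14 of the 17 reads, and CS libraries 1 and 2 lay below Con library 1 in RPKM. On library totals the 16 reads of CS and the 1 read of Con gave a ratio of 10.3 (95% exact interval 1.60 to 431, counting error only). Without CS library 3 it was 2.31 (0.120 to 136), so the size of the ratio rests on that library. Without the filter on low rows, the log2 fold change of Bdnf was 0.85 ± 1.13 SE, not called (limma adjusted p = 0.902).

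A noncoding row, Gm45346, lies on the opposite strand across the start of Bdnf and shares 896 exon bases with it. It held 4 reads in CS library 3 and 0 in the other 5 libraries. The strand setting of the counting is not given in the sources used here, so the reads of these rows cannot be told apart with certainty.

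Bdnf is transcribed from several start sites that share a single coding exon, and the deposited row sums all of them. RefSeq gives 7 windows around Bdnf starts in GRCm38.p6, each from 250 bases before to 50 bases after a start. The window at chr2:109692186-109692485 on the plus strand is shown because it covers promoter IV, the best studied activity-dependent Bdnf promoter, from which reads of this row could have started. Capitals mark CACGTCA, the core of the calcium-responsive element to which CREB binds there.

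Bdnf promoter IV: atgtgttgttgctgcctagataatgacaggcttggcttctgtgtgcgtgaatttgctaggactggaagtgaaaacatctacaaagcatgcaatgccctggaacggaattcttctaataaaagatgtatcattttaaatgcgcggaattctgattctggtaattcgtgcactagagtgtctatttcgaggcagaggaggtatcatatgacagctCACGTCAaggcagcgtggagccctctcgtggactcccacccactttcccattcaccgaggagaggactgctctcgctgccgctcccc

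Searched on both strands, CACGTCA occurred in 1 of the 7 Bdnf windows and in 2.01% of all 32851 RefSeq promoter windows. CACGTCA was searched as a known element of promoter IV, so its match there was fixed in advance and tests nothing. The full palindrome TGACGTCA occurred in 0 of the 7 and in 1.79% of all windows. The shorter TGACG occurred in 1 of the 7 and in 20.8% of all windows. A match describes the letters of the window only. Exon-level reads are not in the deposited table, so the 17 Bdnf reads could not be divided among the starts.

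Ntf3, which encodes NT-3, was at the limit of detection. Its row, on chromosome 6 from 126101412 to 126166910 on the minus strand, held 2, 0 and 0 reads in CS libraries 1, 2 and 3, against 0, 0 and 3 reads in Con libraries 1, 2 and 3. On library totals the ratio of CS to Con was 0.428 (95% exact interval 0.0358 to 3.74, counting error only), so neither a difference nor its direction was detectable at this depth. RefSeq windows for its 2 starts held none of the motifs searched.

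Ntrk2 had the highest mean RPKM of the 6 genes, though its 1816 reads were fewer than the 3098 of Ntrk3. Its row spans 327375 bases of chromosome 13, from 58806596 to 59133970 on the plus strand, and sums 13806 exon bases over the kinase and truncated forms, so the table does not separate TrkB kinase RNA from truncated TrkB RNA. After median scaling it had 14.4, 18.8 and 10.9 RPKM in CS libraries 1, 2 and 3, against 16.5, 11.7 and 18.9 RPKM in Con libraries 1, 2 and 3. CS library 3 was lowest and Con library 3 highest, and the other libraries of each group fell between them. The means were 14.7 ± 3.95 RPKM in CS and 15.7 ± 3.66 RPKM in Con (SD, n = 3 each).

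The log2 fold change of Ntrk2 was -0.10 ± 0.28 SE (limma adjusted p = 0.913), with a 95% interval of -0.77 to 0.57, or 0.585- to 1.48-fold. The sign of this estimate followed the scaling. As deposited, Ntrk2 averaged 16.7 ± 4.01 RPKM in CS and 13.7 ± 2.12 RPKM in Con, with a log2 fold change of 0.27 ± 0.24 SE (limma adjusted p = 0.612). Its 1816 reads make it well measured, and the width of the interval reflects the spread between libraries. Astrocyte markers, whose cells carry truncated TrkB, had overlapping groups, with a summed level of 95.2 to 120 RPKM in CS and 117 to 121 RPKM in Con, and 8 of 12 had an estimate above 0. As deposited their summed level was 115 to 135 RPKM in CS and 96.9 to 114 RPKM in Con, without overlap. Their part in the Ntrk2 values was not tested.

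**Figure D1:**
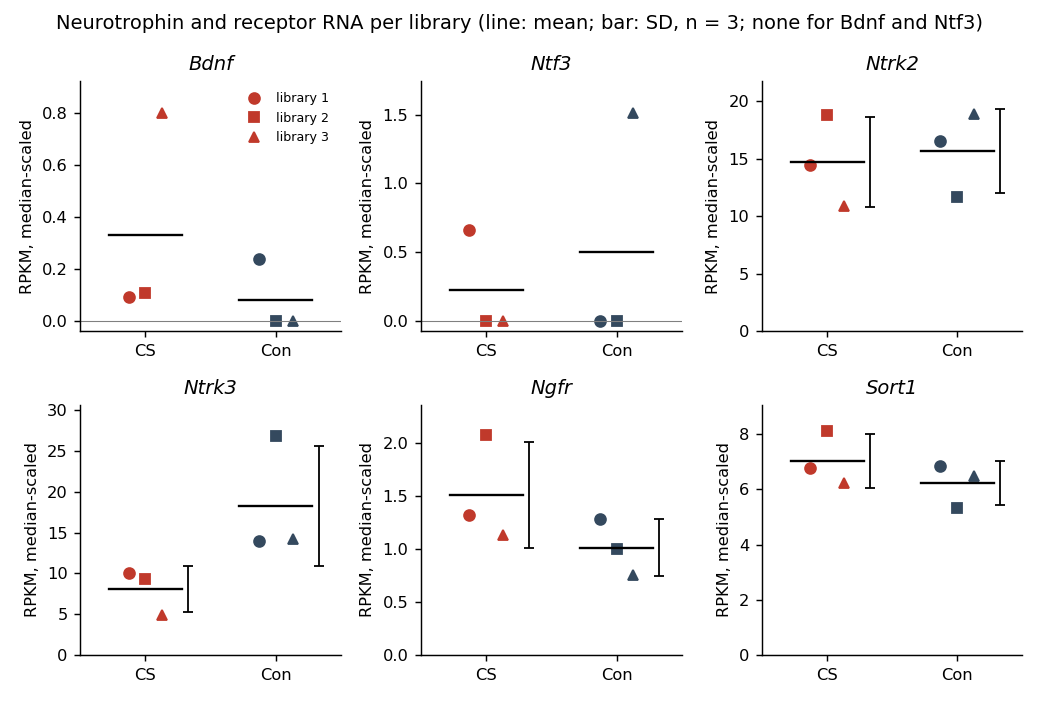
RPKM after median scaling of the 6 genes in each of the 3 CS (left) and 3 Con (right) libraries, with the mean as a line and the SD as a bar where a gene was tested. Ntrk3 lies between 4.85 and 10.0 RPKM in CS and between 14.0 and 26.8 RPKM in Con, while the groups of Ntrk2, Ngfr and Sort1 overlap, and 14 of the 17 reads of Bdnf come from CS library 3.

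Ntrk3, the gene of the NT-3 receptor TrkC, had lower values in every CS library than in any Con library. Its row lies on chromosome 7 from 78175959 to 78738012 on the minus strand and sums 30170 exon bases, again over kinase and truncated forms. After median scaling it had 10.0, 9.37 and 4.85 RPKM in CS libraries 1, 2 and 3, against 14.0, 26.8 and 14.2 RPKM in Con libraries 1, 2 and 3. Con library 2 stood apart with 941 of the 1721 Con reads, and CS library 3 was the lowest of the 6. The means were 8.08 ± 2.82 RPKM in CS and 18.3 ± 7.35 RPKM in Con (SD, n = 3 each).

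The log2 fold change of Ntrk3 was -1.17 ± 0.39 SE, a level in CS of 0.443 times that in Con, and it did not pass (unadjusted p = 0.0206, limma adjusted p = 0.275). The 95% interval ran from -2.10 to -0.25. Without Con library 2 the log2 fold change was -0.88 ± 0.36 SE (limma adjusted p = 0.377), and without CS library 3 it was -0.84 ± 0.35 SE (limma adjusted p = 0.490). As deposited it was -0.80 ± 0.41 SE, and the groups still did not overlap, where 6.50% of all tested rows had CS below Con without overlap. Limma voom on the reads recovered from the table, for rows with at least 60 reads, called Ntrk3 lower with median scaling (log2 fold change -1.19, limma voom adjusted p = 0.0458). It was 1 of 3 testable genes of the 6, against 6.43% of all such rows. Voom on unscaled library totals did not call it (-0.83, limma voom adjusted p = 0.104, against 5.02% of rows called). Whether Ntrk3 passes therefore depends on the model and the scaling. Its sign was the same in all 17 alternatives that gave a value. These reuse the same 6 libraries, and leaving out a library could hardly turn the sign of groups that do not overlap.

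No row shares an exon with Ntrk3. Gm9885, 4921513I08Rik and Gm44606 lie within its introns with 58, 17 and 2 reads. Oligodendrocyte markers had lower summed levels in CS too, 97.5 to 192 RPKM against 216 to 318 RPKM in Con, and 8 of 9 tested members had an estimate below 0. The summed levels of endothelial markers (6.53 to 8.60 RPKM in CS, 10.6 to 11.1 RPKM in Con) and of GABAergic neuron markers (62.1 to 101 RPKM in CS, 111 to 134 RPKM in Con) also did not overlap, although 5 of 8 GABAergic markers had an estimate above 0. As deposited, the summed levels of these 3 lists overlapped between the groups, and 5 oligodendrocyte markers had an estimate above and 4 below 0. The summed level of pan-neuronal markers overlapped after scaling (430 to 516 RPKM in CS, 453 to 538 RPKM in Con) and lay higher in every CS library as deposited (519 to 574 RPKM in CS, 408 to 439 RPKM in Con). The part of these cell types in the Ntrk3 values was not tested, and in such bulk samples fewer cells of a type and less RNA per cell cannot be told apart.

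Ngfr, the gene of p75NTR, was low in both groups. Its row lies on chromosome 11 from 95568818 to 95587735 on the minus strand. It held 8, 11 and 11 reads in CS libraries 1, 2 and 3, against 3, 4 and 3 reads in Con libraries 1, 2 and 3. After median scaling these were 1.32, 2.08 and 1.13 RPKM in CS and 1.29, 0.997 and 0.752 RPKM in Con. CS library 2 was highest and Con library 3 lowest, and CS library 3 lay below Con library 1. The log2 fold change was 0.49 ± 0.50 SE (limma adjusted p = 0.754), with an interval of -0.72 to 1.69, so that differences from 0.608- to 3.24-fold lay within it. As deposited, all CS libraries lay above all Con libraries (1.72 ± 0.535 RPKM in CS and 0.904 ± 0.269 RPKM in Con), a pattern seen in 18.5% of tested rows on that scale, and the log2 fold change of 0.86 ± 0.51 SE did not pass (limma adjusted p = 0.414).

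In the adult forebrain p75NTR is best known from cholinergic neurons of the basal forebrain, which lie close to the vBNST. Their markers were detected at low levels, with 51 reads of the gene of the acetylcholine-synthesizing enzyme, Chat, over the 6 libraries. The summed level of the 8 markers was 21.4 to 26.9 RPKM in CS and 31.9 to 35.5 RPKM in Con, and 6 of 8 had an estimate below 0. As deposited the summed levels overlapped, 25.8 to 30.1 RPKM in CS and 28.1 to 34.4 RPKM in Con, with 3 estimates above and 5 below 0. The part of these cells in the Ngfr values was not tested.

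Sort1, the gene of sortilin, had the smallest standard error of the 4 tested genes. Its row lies on chromosome 3 from 108284082 to 108361511 on the plus strand. After median scaling it had 6.77, 8.11 and 6.22 RPKM in CS libraries 1, 2 and 3, against 6.84, 5.33 and 6.50 RPKM in Con libraries 1, 2 and 3. The groups overlapped, with means of 7.03 ± 0.971 RPKM in CS and 6.23 ± 0.789 RPKM in Con (SD, n = 3 each). The log2 fold change was 0.17 ± 0.23 SE (limma adjusted p = 0.801, interval -0.37 to 0.71). As deposited, all 3 CS libraries lay above the Con libraries (8.04 ± 0.913 RPKM in CS and 5.49 ± 0.474 RPKM in Con). That difference of 0.54 ± 0.22 SE on the log2 scale did not pass (limma adjusted p = 0.290), and the median of all tested rows on that scale was 0.41. Sort1 shares 338 exon bases with Gm12523 on the opposite strand, a row with 25 reads against the 456 of Sort1.

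**Figure D2:**
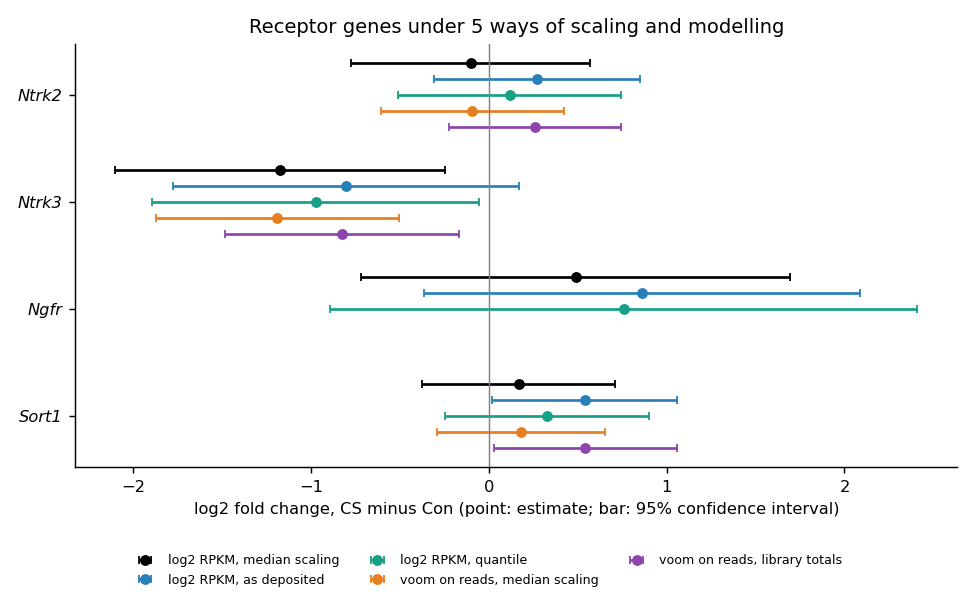
Log2 fold change, CS minus Con, of the 4 tested genes with its 95% confidence interval under 5 combinations of scaling and model, with voom values missing for Ngfr because its 40 reads lie below the minimum of 60. Estimates for Ntrk3 lie between -1.19 and -0.80, those for Ntrk2 lie on either side of 0, and those for Ngfr and Sort1 lie above 0.

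Ratios between genes within a library do not depend on how libraries are scaled. The ratio of Ntrk3 to Ntrk2, TrkC to TrkB RNA per length, was 0.694, 0.499 and 0.445 in CS libraries 1, 2 and 3, against 0.847, 2.29 and 0.750 in Con libraries 1, 2 and 3. All CS libraries lay below all Con libraries, and Con library 2 was the only library with more Ntrk3 than Ntrk2 per length. On the log2 scale the difference was -1.07 (exact two-sided permutation p = 0.1, the smallest that 3 against 3 libraries can give, and 0.25 after adjustment over the 5 ratios computed). It was -0.57 without Con library 2.

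The ratio of Ngfr to Ntrk2 was 0.0916, 0.111 and 0.104 in CS libraries 1, 2 and 3, against 0.0780, 0.0852 and 0.0398 in Con libraries 1, 2 and 3. Here the CS libraries all lay above the Con libraries, by 0.59 on the log2 scale (exact permutation p = 0.1, adjusted p = 0.25), and by 0.28 without Con library 3, in which 3 reads of Ngfr set the ratio. The ratio of Sort1 to Ntrk2 was 0.469, 0.432 and 0.571 in CS and 0.415, 0.456 and 0.344 in Con, with overlapping groups (difference 0.27, exact permutation p = 0.2, adjusted p = 0.333). The ratios of Bdnf to Ntrk2 and of Ntf3 to Bdnf rested on too few reads to be ordered (exact permutation p = 0.5 and 0.6, adjusted p = 0.6 for both).

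**Figure D3:**
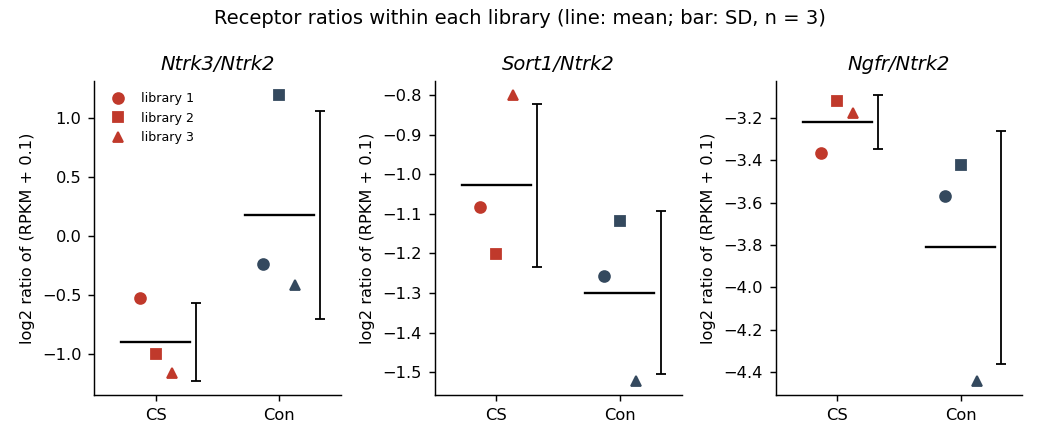
Log2 ratio of (RPKM + 0.1) between 2 genes within each library, for Ntrk3, Sort1 and Ngfr over Ntrk2, with CS left and Con right, the mean as a line and the SD as a bar (n = 3). The Ntrk3 ratios of CS, -1.16 to -0.52, lie below those of Con, -0.41 to 1.19, and the Ngfr ratios of CS lie above those of Con.

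In order of level per length over the 6 libraries, the 4 receptor genes came before the 2 ligand genes. Mean levels as deposited were 15.2 ± 3.31 RPKM for Ntrk2, 12.9 ± 6.81 for Ntrk3, 6.77 ± 1.54 for Sort1, 1.31 ± 0.587 for Ngfr, 0.327 for Ntf3 and 0.232 for Bdnf (SD, n = 6). Ntrk2 ranked at the 91.1st percentile of all rows and Bdnf at the 16.7th. Sort1 was higher than Ngfr in 6 of 6 libraries, by 5.11-fold (exact sign-flip permutation p = 0.0313, the smallest that 6 libraries can give, and 0.156 after adjustment over the 5 neighbouring pairs). Ntrk2 lay above Ntrk3 in 5 of 6 libraries (p = 0.344, adjusted p = 0.43 by the same exact permutation), and Ntrk3 above Sort1 in 5 of 6 (exact permutation p = 0.0938, adjusted p = 0.156). Ngfr lay above Ntf3 in 5 of 6 (exact permutation p = 0.0625, adjusted p = 0.156), with Ntf3 higher in Con library 3 on its 3 reads. No neighbouring pair passed after adjustment. RPKM divides by the summed length of all exons of a row, so a gene with long alternative exons, Ntrk3 above all, has a lower value than its main transcript would give.

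The genes whose pattern over the 6 libraries was most like a given gene were sought among 9304 tested rows with at least 60 reads and a gene symbol that is not a predicted gene, clone or pseudogene. For Ntrk2 these were Cxxc1, Ptprt and Nck2 (Pearson r = 0.9995, 0.998 and 0.997 over 6 libraries). For Ntrk3 they were Prickle4, Zfp503 and Yjefn3 (0.997, 0.993 and 0.992), of which Prickle4 shares 1123 exon bases with Gm21981. For Sort1 they were Gpx1, Sdhb and Pdzd4 (0.994, 0.992 and 0.991). Such values describe a search over many rows with 6 points each, which share library depth and scaling. Among the tested genes themselves, r was 0.73 between Ntrk2 and Sort1, 0.74 between Ngfr and Sort1, and 0.14 between Ntrk2 and Ntrk3.

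The rest of the pathway was taken as 10 lists with 156 genes, of which 152 had a row and 144 were tested. Of these 0 were called by limma, against 0.968% of all tested rows. Without adjustment, 4 were higher and 20 lower at a p under 0.05, 16.7% in either direction against 12.5% of all tested rows. Over all tested rows 774 were higher and 1803 lower at that p, so more rows were lower there too. As deposited 26 pathway genes had such a p, 18.1%, and over all tested rows 2461 were higher and 964 lower. The direction over all rows thus followed the scaling. Estimates lay above 0 for 69 genes and below 0 for 75 (median -0.04, against 0.03 over all tested rows). As deposited 94 lay above and 50 below 0 (median 0.33, against 0.41 over all tested rows). Voom with median scaling called 1 gene higher and 8 lower among 125 that it could test, 7.2% against 6.43% of all such rows, and over all such rows it likewise called more lower (645) than higher (28). Among the other neurotrophins and receptors, 4 of 9 tested genes had an estimate above and 5 below 0, and as deposited 5 above and 4 below. Ntf5, which encodes the other TrkB ligand NT-4, had the smallest p, with 9, 10 and 8 reads in CS libraries 1, 2 and 3 and 10, 18 and 21 reads in Con libraries 1, 2 and 3. That is 1.82 ± 0.704 RPKM in CS and 6.08 ± 0.665 RPKM in Con (SD, n = 3 each), with no overlap. Its log2 fold change was -1.77 ± 0.38 SE (limma adjusted p = 0.104), and -1.40 as deposited. Voom with median scaling called it lower (-2.01, limma voom adjusted p = 0.0214). Voom with library totals did not (-1.60, limma voom adjusted p = 0.0537). For the pathway genes that follow, voom p-values are with median scaling unless library totals are named. Rtn4r, the Nogo receptor and a p75NTR partner in neurons, had -1.37 ± 0.39 SE (limma adjusted p = 0.206).

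Genes that process or release neurotrophins had 1 estimate above and 6 below 0 among 7 tested, with a median of -0.74, and -0.36 as deposited. Cpe, the carboxypeptidase that also acts as a sorting receptor for proBDNF, had 62.4 ± 17.2 RPKM in CS and 155 ± 16.9 RPKM in Con (SD, n = 3 each), with no overlap. Its log2 fold change of -1.34 ± 0.22 SE did not pass in limma (adjusted p = 0.0592) and was -0.97 as deposited. In voom Cpe passed (limma voom adjusted p = 0.00323, and 0.023 with library totals). The proprotein convertase gene Pcsk5 had -1.46 ± 0.42 SE (limma adjusted p = 0.206, limma voom adjusted p = 0.0156), and -1.09 as deposited. With library totals voom did not call it (limma voom adjusted p = 0.0685).

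Downstream of the Trk kinases the lists had estimates on either side of 0. Trk adaptors had 11 estimates above and 11 below 0 (median -0.10, and 0.27 as deposited). The smallest p belonged to Shc4, an Shc-family adaptor (-0.79 ± 0.17 SE, limma adjusted p = 0.105), and Slitrk5, a TrkB co-receptor (-1.06 ± 0.38 SE, limma adjusted p = 0.327). As deposited these estimates were -0.42 and -0.68. Voom called Shc4 (limma voom adjusted p = 0.0159) but not with library totals (limma voom adjusted p = 0.154). Slitrk5 was not called by voom (limma voom adjusted p = 0.0745). Shc4 shares 527 exon bases with Eid1 on the opposite strand, which held 3225 reads against its 2741, and how the reads divide between them is not known. In the Ras and MAP kinase branch 11 estimates lay above and 9 below 0, and as deposited 15 above and 5 below. Mapk3, which encodes ERK1, had 2.84 ± 0.627 RPKM in CS and 7.05 ± 1.51 RPKM in Con (-1.29 ± 0.29 SE, limma adjusted p = 0.117, limma voom adjusted p = 0.0615). As deposited its estimate was -0.92.

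In the PI3 kinase branch 6 estimates lay above and 10 below 0 (median -0.19), but as deposited 9 above and 7 below (median 0.18). The transcription factor gene Foxo3, whose product Akt keeps out of the nucleus, had -1.23 ± 0.24 SE (limma adjusted p = 0.0848, limma voom adjusted p = 0.00785, and 0.04 with library totals). As deposited its estimate was -0.86. The phospholipase C and calcium branch had 15 estimates above and 3 below 0, with a median of 0.20 against 0.03 over all tested rows. As deposited its median was 0.57, against 0.41 over all tested rows. The calcium- and calmodulin-dependent kinase gene Camk2g had 13.8 ± 1.84 RPKM in CS and 6.72 ± 1.84 RPKM in Con (1.05 ± 0.25 SE, limma adjusted p = 0.134, limma voom adjusted p = 0.0465, and 0.0207 with library totals). As deposited its estimate was 1.42. The calmodulin gene Calm3 had 430 ± 36.9 RPKM in CS and 302 ± 19.4 RPKM in Con (0.51 ± 0.15 SE, limma adjusted p = 0.23, limma voom adjusted p = 0.0619, and 0.0226 with library totals). As deposited its estimate was 0.88.

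Partners and effectors of p75NTR had 10 estimates above and 5 below 0 (median 0.08), and as deposited 13 above and 2 below. The smallest p there belonged to Prdm4, a zinc finger protein that binds p75NTR (-0.83 ± 0.44 SE, limma adjusted p = 0.514, limma voom adjusted p = 0.279), and to the JNK2 gene Mapk9 (0.34 ± 0.22 SE, limma adjusted p = 0.598, limma voom adjusted p = 0.411). As deposited these estimates were -0.46 and 0.71. Regulators of Bdnf transcription had 6 estimates above and 10 below 0 (median -0.14), but as deposited 10 above and 6 below (median 0.23). Among them Srf had 8.92 ± 1.5 RPKM in CS and 17.7 ± 2.81 RPKM in Con (-0.99 ± 0.22 SE, limma adjusted p = 0.106, limma voom adjusted p = 0.0257). With library totals voom did not call Srf (limma voom adjusted p = 0.144). Usf2, an E-box factor that binds Bdnf promoters, had -0.80 ± 0.28 SE (limma adjusted p = 0.315, limma voom adjusted p = 0.187). As deposited the estimates were -0.62 for Srf and -0.42 for Usf2. Transcripts that BDNF is known to induce had 3 estimates above and 13 below 0, with a median of -0.39. As deposited 8 lay above and 8 below 0, where 13648 of all 20550 tested rows lay above 0. The MAP kinase phosphatase gene Dusp1 (-1.39 ± 0.42 SE, limma adjusted p = 0.232) and the transcription factor gene Egr3 (-1.01 ± 0.44 SE, limma adjusted p = 0.419) had the smallest p. As deposited these estimates were -1.01 and -0.63. Voom did not call Egr3 (limma voom adjusted p = 0.14), and Dusp1 had too few reads for it.

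**Figure D4:**
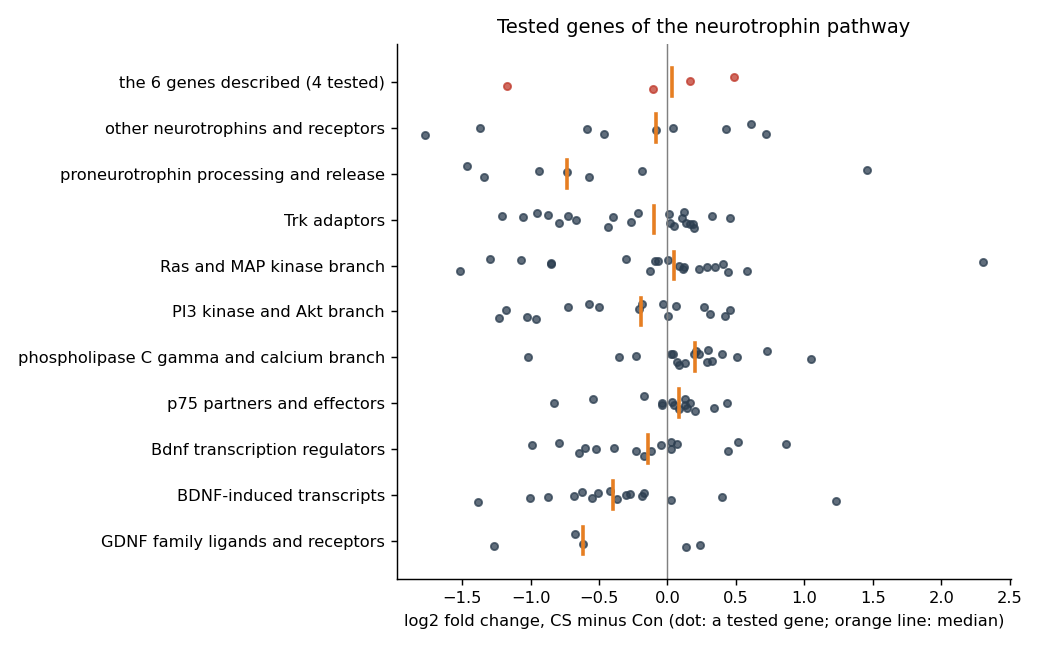
Log2 fold change, CS minus Con, of each tested gene (dots) in the neurotrophin pathway lists, with the list median as an orange line and the 4 tested genes of the 6 described in red at the top. The median of the phospholipase C and calcium list is 0.20 and that of the BDNF-induced list -0.39; no dot is a gene called by limma over all rows.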

How the data were processed

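The submitters' processing notes name Trimmomatic 0.36, featureCounts from Subread 1.5.1, and the mouse builds GRCm38 and mm10. Neither the aligner nor the strand setting is given in the sources used here. Per the labels' protocols, the libraries were depleted of rRNA and stranded. The authors deposited RPKM for 29547 rows in 6 libraries. RPKM times exon length gave whole reads in 100% of values above 0 (tolerance 0.01 read), so reads were computed from the deposited values; intervals on them cover counting error only. No library pair of a group held the same counts.

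Tests used limma 3.58.1 (R 4.3.3), with moderated variances following a trend, a pseudocount of 0.1, rows with a mean of at least 0.5 RPKM, and median scaling. The log2(RPKM + 0.1) scale understates changes of low genes, and levels given as scaled are RPKM divided by each library's median shift. Alternatives were pseudocounts, filters, scalings, the variance trend, a replicate block, voom on reads, and each library left out. The models were tested on simulated data. Ratios were compared by exact two-sided permutation tests. The labels do not say whether replicate numbers pair the libraries, and the main tests did not pair them.

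Genes were named by a rule: the 6 genes, the 2 genes of each pathway list with the smallest p, and the 3 genes most like each of the 6 with at least 60 reads. Some genes that the rule names are not reported here. Chat, overlapping rows and marker lists were added as context. The genes and lists were chosen with earlier results of these data known. Sequences are from RefSeq (GRCm38.p6), whose promoter table held 4 of the 6 genes.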

Additional observations from a re-analysis of the deposited data

How the results depend on the processing

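Of the tested genes, 0 were called in every alternative other than voom with median scaling, with or without a replicate block. Without the block voom called 1, Ntrk3 (-1.19, limma voom adjusted p = 0.0458). With the block, an alternative chosen after seeing the data, it also called 1, Ntrk3 (-1.17, limma voom adjusted p = 4.59e-05). That p rests on a variance shared over rows, not on the spread of Ntrk3 between libraries. Limma with the same block did not call Ntrk3 (limma adjusted p = 0.489). Leaving out each library called 0 of the tested genes, with log2 fold changes of -1.35 to -0.84 for Ntrk3, -0.31 to 0.10 for Ntrk2, 0.25 to 0.67 for Ngfr and 0.05 to 0.25 for Sort1. Ntrk2 turned to 0.27 as deposited, 0.12 with quantile normalization, 0.26 by voom with library totals, 0.10 without CS library 3 and 0.04 without Con library 3; the cause is the scaling in the first 3 and was not tested in the others. With a library left out, the ratio difference was -1.37 to -0.57 for Ntrk3 to Ntrk2 and 0.28 to 0.78 for Ngfr to Ntrk2. The groups of these ratios do not overlap, so leaving out a library could not turn their sign. For Sort1 to Ntrk2, whose groups overlap, the difference was 0.16 to 0.36. The order of Ntf3 over Bdnf, -0.06, turned to 0.0784 and 0.0675 with pseudocounts of 0.5 and 1 and lay between -0.82 and 0.61 with a library left out.

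Over all rows the 199 calls became 112 with a pseudocount of 1, 107 without a filter, 65 as deposited, 110 with quantile normalization, 673 by voom with median scaling, 525 by voom with library totals, and 8 to 297 with a library left out. With a replicate block limma called 0 rows (1691 at an unadjusted p under 0.05) and voom 731. Same-numbered libraries deviated with r of -0.07, 0.00 and 0.02, which cannot show whether they were handled as pairs, and the labels do not say. The block left the log2 fold change of Ntrk3 at -1.17 (limma adjusted p = 0.489) and the Ntrk3 to Ntrk2 difference at -1.07. Pathway lists had 0 calls by limma under each alternative. Voom with median scaling called 1 among the other neurotrophins and receptors, 2 in processing, 1 among Trk adaptors, 1 in the Ras branch, 2 in the PI3 kinase branch, 1 in the calcium branch and 1 among Bdnf regulators. Together these were 7.2% of the 125 pathway genes it could test, against 6.43% of all such rows. With library totals voom called 1 in processing, 1 adaptor, 1 in the Ras branch, 1 in the PI3 kinase branch and 3 in the calcium branch. These were 5.6% of the 125, against 5.02% of all such rows. With median scaling and the block voom called 1 among the other neurotrophins and receptors, 2 in processing, 1 adaptor, 2 in the Ras branch, 2 in the PI3 kinase branch, 1 Bdnf regulator and 1 BDNF-induced transcript. These were 8% of the 125, against 731 of all 10463 such rows. Depth limits Bdnf (17 reads), Ntf3 (5) and Ngfr (40).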

Other observations

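Among genes outside the neurotrophin family, 5 of the 10 GDNF family ligand and receptor genes were tested, with 2 estimates above and 3 below 0. Nrtn, which encodes neurturin, had 5.66 ± 5.61 RPKM in CS and 10.4 ± 3.49 RPKM in Con (SD, n = 3 each). Its log2 fold change was -1.27 ± 0.67 SE (limma adjusted p = 0.502), and -0.90 as deposited. Gfra1, the gene of the GDNF co-receptor, had 2.32 ± 1.3 RPKM in CS and 3.51 ± 1.42 RPKM in Con (-0.68 ± 0.59 SE, limma adjusted p = 0.702), and an estimate of -0.31 as deposited. The groups of both genes overlapped. Gdnf itself held 0 reads in CS and 10 in Con, of which Con library 1 held 0 and Con libraries 2 and 3 held 6 and 4.

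Among the sortilin relatives, chosen for their family and described after their values were seen, Sorl1 had 5.75 ± 1.82 RPKM in CS and 5.39 ± 0.774 RPKM in Con. Sorcs2, the gene of another proneurotrophin co-receptor of p75NTR, had 2.37 ± 0.562 RPKM in CS and 1.53 ± 0.625 RPKM in Con (log2 fold change 0.61 ± 0.45 SE, limma adjusted p = 0.654). Sorcs3 had 3.94 ± 1.27 RPKM in CS and 2.28 ± 0.563 RPKM in Con (0.72 ± 0.38 SE, limma adjusted p = 0.508), and Sorcs1 had 3.01 ± 1.53 RPKM in CS and 3.83 ± 1.11 RPKM in Con. After median scaling the groups of all 4 overlapped. As deposited, Sorcs2 and Sorcs3 were higher in every CS library than in any Con library, a pattern seen in 18.5% of tested rows on that scale. Their log2 fold changes as deposited were 0.98 and 1.095, against 0.41 for Sorl1 and -0.09 for Sorcs1.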
